A study of Mus musculus with 12 samples.

Results

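*Gpc6* encodes glypican 6, a proteoglycan of the cell surface. It was examined in mouse liver together with 9 other genes that encode glypicans, syndecans, the matrix proteoglycan perlecan, or enzymes that build their heparan sulfate chains. *Gpc6* was picked because its RNA differed between the 2 genotypes of these livers. Its own difference is therefore given as a description without a test. The other members (*Gpc1*, *Gpc3*, *Gpc4*, *Sdc1*, *Sdc2*, *Sdc4*, *Hspg2*, *Ext1* and *Ndst1*) were listed by function. The 10 genes are rows of a count table of 54232 genes, and all 10 were among the 17509 genes with enough reads to be tested.

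The livers came from male C57Bl/6J littermates aged 10 weeks, kept on standard chow and fasted for 4 h, with 1 mRNA library per mouse. Both groups carried floxed *Marchf6* alleles (Marchf6 fl/fl), *Marchf6* being the gene of a ubiquitin ligase of the endoplasmic reticulum. The 6 WT mice were AlbuminCre-. The 6 LKO mice were AlbuminCre+, so that Cre, driven by the albumin promoter, removed an exon of *Marchf6* in hepatocytes, while the other cells of the liver kept the floxed allele. Total counts ranged from 14860414 to 22111926 reads per liver. Hepatocyte genes were abundant in every liver, with summed normalized CPM of 92427 to 111701 in WT and 82795 to 96310 in LKO over 6 markers. The gene-level count of *Marchf6* was 241 ± 8.36 CPM in WT and 226 ± 16.5 in LKO (SD, 6 livers each). Its log2 fold change was -0.09 (edgeR quasi-likelihood test, adjusted p = 0.585). Reads from the exons that remain enter this count, so it does not check the deletion. Over the whole table, 75 genes passed an adjusted p of 0.05 in the same test.

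Heparan sulfate is a long sulfated sugar chain that is attached to serines of a few core proteins. Glypicans hold it to the outer leaflet of the membrane by a glycosylphosphatidylinositol (GPI) anchor, syndecans carry it on a protein that spans the membrane, and perlecan carries it in basement membranes. The chains bind growth factors, morphogens, lipases and lipoproteins, and in the liver the syndecan 1 of hepatocytes is known for taking up triglyceride-rich lipoprotein remnants. Glypican 6 is best known for its role in hedgehog signalling during bone growth, and loss of its function shortens the limbs.

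Chains are built on serines that are followed by glycine. Close to the membrane anchor, *Gpc6* holds a run of such codons. It is printed beside a stretch from each of the other 3 glypicans tested in these livers. For each gene, the 90 bases with the most serine-glycine pairs were taken, so the lines are not aligned base by base. These stretches show what kind of product the counted RNAs encode. Each line gives 90 bases of coding sequence from GENCODE M21 transcripts (GRCm38), 5′ to 3′ on the coding strand, with the serine-glycine codon pairs in capitals. The *Gpc6* stretch joins exons 9 and 10 on the plus strand and lies within chr14:117964850-117974948. That of *Gpc4* is in exon 9 on the minus strand (chrX:52053635-52053724). That of *Gpc1* joins exons 8 and 9 on the plus strand (chr1:92858003-92858393), and that of *Gpc3* is in exon 7 on the minus strand (chrX:52314862-52314951).
Gpc6: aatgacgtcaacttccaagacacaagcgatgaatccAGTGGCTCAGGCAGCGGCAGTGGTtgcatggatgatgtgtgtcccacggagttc
Gpc4: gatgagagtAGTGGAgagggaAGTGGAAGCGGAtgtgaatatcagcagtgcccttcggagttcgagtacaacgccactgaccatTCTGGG
Gpc1: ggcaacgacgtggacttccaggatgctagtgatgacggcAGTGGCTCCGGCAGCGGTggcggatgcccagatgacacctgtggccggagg
Gpc3: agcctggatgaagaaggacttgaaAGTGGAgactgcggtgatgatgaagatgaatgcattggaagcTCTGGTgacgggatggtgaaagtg

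The *Gpc6* stretch holds 4 of the 5 serine-glycine pairs of its 565 codons, in direct succession. *Gpc1* has 3 pairs in succession at the matching place, and in *Gpc3* the 2 pairs of the gene stand apart. Over aligned codons, the coding sequence of *Gpc6* had 64.9% of its bases in common with *Gpc4*, 56.2% with *Gpc1* and 44.6% with *Gpc3*. No stretch of 31 bases in the annotated transcripts of *Gpc6* or *Gpc4* occurred in a transcript of any other gene on either strand, so an exact match of that length does not assign a read of one glypican to the other. *Gpc1* shared 18.4% of its stretches with *Ankmy1*, which overlaps its end on the opposite strand. The strand setting of the counting is not given in the sources used here, and the level of *Gpc1* is uncertain to that extent. The other 7 members shared between 0% and 3.23% of their stretches with other genes.

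*Gpc6* (ENSMUSG00000058571, chr14:116925315-117976544, plus strand, GRCm38) spans 1051230 bp, of which 6425 bp are exonic. In the WT livers its normalized expression, as CPM (read counts scaled to the library by TMM), had a lowest value of 0.785, a median of 1.07 and a highest value of 1.24. In the LKO livers the lowest value was 3.67, the median 4.36 and the highest 5.12. The groups did not overlap, and the lowest LKO liver stood well above the highest WT liver. The means were 1.05 ± 0.164 CPM in WT and 4.37 ± 0.577 CPM in LKO (SD, n = 6 each), and the fitted log2 fold change was 2.06 with a standard error of 0.15, which is 4.18-fold. The coefficients of variation within a genotype were 15.7% in WT and 13.2% in LKO. At the read numbers given next, counting error alone can give spreads of this order. These values therefore do not show how alike the mice were. In reads, the WT libraries held 15 to 18 each and the LKO libraries 64 to 114 each. *Gpc6* was thus an RNA of low abundance in LKO livers too.

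Of the other glypicans, *Gpc4* was the main one in liver. Its lowest, median and highest values were 64.6, 73.6 and 81.2 CPM in WT and 54.7, 63.8 and 68.2 CPM in LKO. The LKO livers tended to lie below the WT livers, but the groups overlapped. Its log2 fold change was -0.22 (95% interval -0.38 to -0.06), with an unadjusted p of 0.0102 and an adjusted p of 0.245 in edgeR. *Gpc1*, the glypican of many adult tissues, had medians of 14.0 CPM in WT and 13.0 CPM in LKO, with a log2 fold change of -0.05 (95% interval -0.35 to 0.24, adjusted p = 0.925 in edgeR). *Gpc3*, a fetal liver glypican that returns in hepatocellular carcinoma, was also scarce, with coefficients of variation of 52.9% in WT and 44.5% in LKO. It ranged from 0.404 to 2.76 CPM in WT and from 0.693 to 1.98 CPM in LKO, and its log2 fold change of -0.44 had a 95% interval from -1.23 to 0.35 (adjusted p = 0.698 in edgeR). *Gpc2* had at most 2 reads in any liver and *Gpc5*, which lies upstream of *Gpc6* on the same chromosome, at most 1, so neither was tested and a difference in them was not detectable at this depth.

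**Figure D1:**
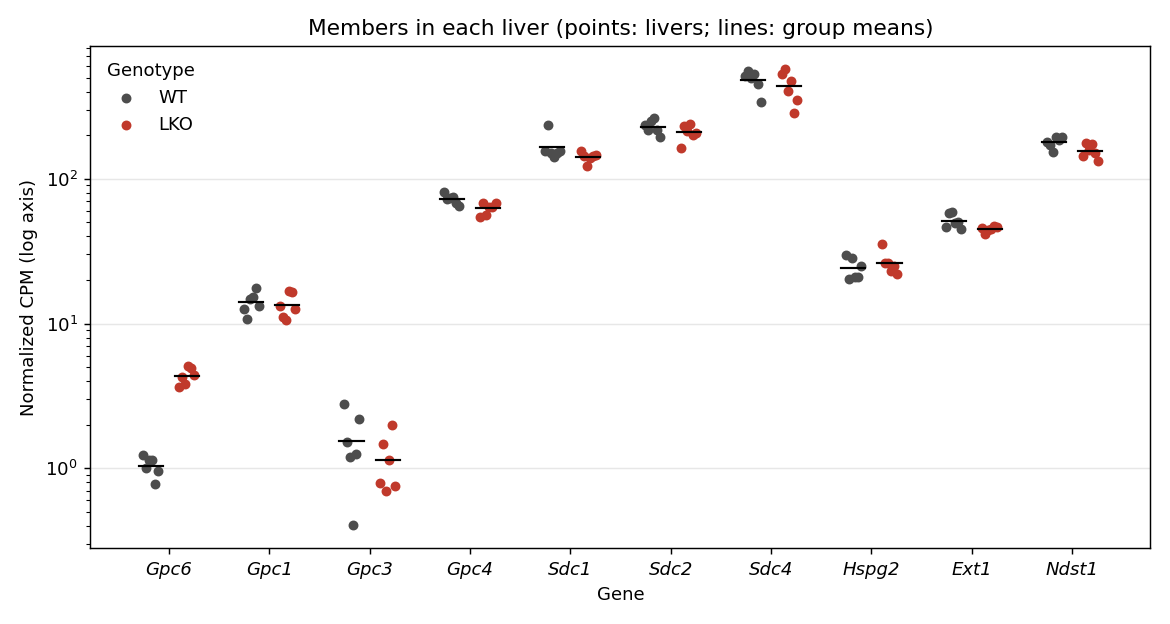
Normalized CPM (log axis) of the 10 members in each of 6 WT and 6 LKO livers, with points for livers and lines for group means. *Gpc6* lies between 0.785 and 1.24 CPM in WT and between 3.67 and 5.12 CPM in LKO, and the livers of the groups overlap for each of the other 9 genes.

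Levels of different genes were set side by side per length, as TPM (reads per base, scaled to the same total in every liver) over the union of each gene's exons. In WT livers *Gpc6* came last of the 10 members, at 0.410 ± 0.06 TPM, below *Gpc3* at 1.45 ± 0.762 TPM, with overlap between these neighbours in the order. In LKO livers *Gpc6* was ninth, at 1.78 ± 0.24 TPM, above *Gpc3* at 1.11 ± 0.514 TPM, and again their ranges overlapped. The rest of the order was the same in both genotypes. *Sdc4* led with 475 ± 69.4 TPM in WT, followed by *Sdc2* (164 ± 18.6), *Sdc1* (109 ± 20.2), *Gpc4* (68.9 ± 4.32), *Ndst1* (54.7 ± 6.01), *Ext1* (16.0 ± 1.49), *Gpc1* (6.87 ± 1.29) and *Hspg2* (4.26 ± 0.681). Among these, the ranges of *Sdc2* and *Sdc1* overlapped in WT and those of *Gpc1* and *Hspg2* in LKO, while the other neighbours in the order were apart in every liver.

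*Gpc6* supplied 0.526 ± 0.06% of the glypican TPM of a WT liver and 2.49 ± 0.191% of that of an LKO liver. *Gpc4* supplied 88.7 ± 1.57% and 86.3 ± 2.11%, and *Gpc1* 8.86 ± 1.7% and 9.60 ± 1.72%. Summed over all 6 glypicans, the level was 77.7 ± 4.31 TPM in WT (73.1 to 83.9) and 71.5 ± 6.11 TPM in LKO (63.4 to 78.9). The added *Gpc6* in LKO livers was small beside these sums, whose mean was not higher in LKO and whose ranges overlapped.

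**Figure D2:**
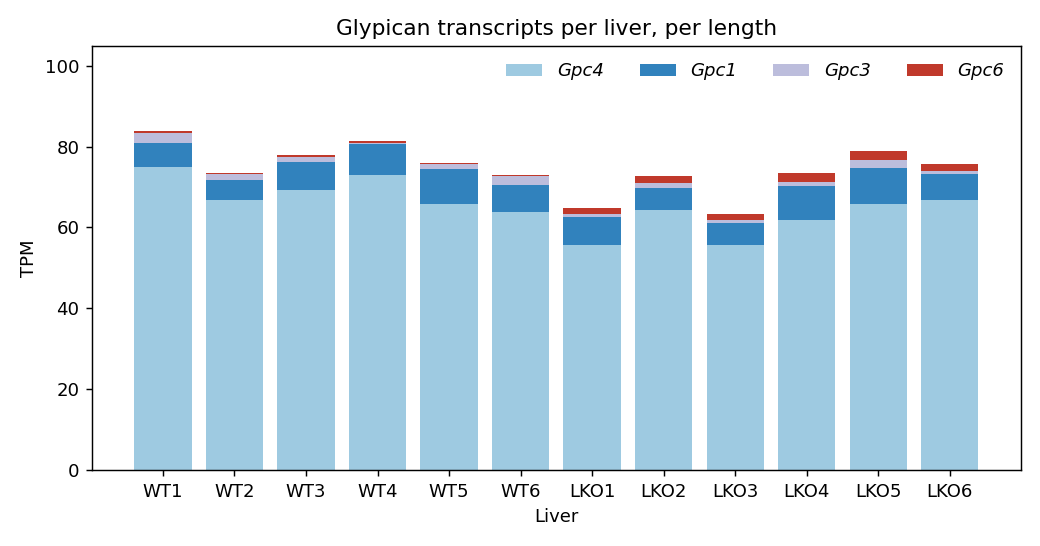
Stacked bars of the TPM of *Gpc4*, *Gpc1*, *Gpc3* and *Gpc6* in each WT and LKO liver, from 0. *Gpc4* makes up most of every bar, and *Gpc6* is a thin band that is taller in each LKO liver (1.54 to 2.09 TPM) than in any WT liver (0.313 to 0.473 TPM).

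*Sdc4*, *Sdc2* and *Sdc1* were, per length, the most abundant of the 10 members. *Sdc4*, a ubiquitous syndecan of cell adhesion sites, had a lowest, median and highest value of 337, 507 and 557 CPM in WT and of 286, 439 and 575 CPM in LKO. It varied more than 2-fold among LKO livers, and its log2 fold change of -0.14 (95% interval -0.48 to 0.20) had an adjusted p of 0.780 in edgeR. *Sdc2* lay between 193 and 265 CPM in WT and between 163 and 237 CPM in LKO, with a log2 fold change of -0.14 (95% interval -0.34 to 0.07) and an adjusted p of 0.624 in edgeR. For *Sdc1*, the syndecan known for remnant uptake, 5 of the 6 WT livers lay between 141 and 157 CPM, while WT liver 2 stood apart at 235 CPM. The LKO livers lay between 123 and 155 CPM. For *Sdc1* the log2 fold change was -0.22 (95% interval -0.46 to 0.01, adjusted p = 0.453 in edgeR) with all livers and -0.10 without WT liver 2. *Sdc3*, which is no member but the fourth syndecan, pointed the other way, from a median of 22.3 CPM in WT to 29.2 CPM in LKO (log2 fold change 0.36, 95% interval 0.12 to 0.60, adjusted p = 0.215 in edgeR).

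*Hspg2*, the gene of perlecan, was the single member other than *Gpc6* with a fold change above 0. Its lowest, median and highest values were 20.4, 22.9 and 29.6 CPM in WT and 22.05, 25.6 and 35.2 CPM in LKO. This gave a log2 fold change of 0.12 (95% interval -0.15 to 0.39, adjusted p = 0.758 in edgeR), or 0.02 without LKO liver 1, the highest of its group.

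Among the enzymes, *Ext1* encodes a subunit of the polymerase that lengthens the chain. It ranged from 44.6 to 58.7 CPM in WT (median 50.0) and from 41.8 to 47.5 CPM in LKO (median 45.2). The LKO livers were close together, within the lower part of the WT range and just below it. The log2 fold change was -0.18 (95% interval -0.34 to -0.03, unadjusted p = 0.0231, adjusted p = 0.325 in edgeR). *Ndst1* encodes the enzyme that removes acetyl groups from the chain and adds sulfate in their place, the step on which later sulfation depends. It ranged from 154 to 195 CPM in WT (median 182) and from 132 to 177 CPM in LKO (median 154), with a log2 fold change of -0.20 (95% interval -0.38 to -0.03, unadjusted p = 0.0245, adjusted p = 0.332 in edgeR).

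None of the 9 members other than *Gpc6* passed the adjusted threshold in edgeR, against 0.428% of all genes tested, and none passed it in limma voom or DESeq2, which called 0.485% and 2.17% of the genes to which they gave an adjusted p. At an unadjusted p under 0.05, 3 of the 9 were lower in LKO and 0 were higher, where the shares over all genes tested were 5.36% lower and 6.33% higher. Fold changes were below 0 for 8 of the 9, with a median log2 fold change of -0.18 beside 0.00 for all genes tested. The highest upper bound of a 95% interval among the 9 was 0.39, for *Hspg2*, beside the fitted value of 2.06 for *Gpc6*. The livers of the groups did not overlap for 0 of the 9, where 1.30% of all genes tested had groups that did not overlap.

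The wider set of heparan sulfate genes comprised 67 genes besides *Gpc6*: core proteins, enzymes of the linker sugars, polymerases, modifying enzymes, genes that supply sugar and sulfate donors, enzymes that edit or release chains and core proteins, and lysosomal enzymes that degrade them. In all, 59 were tested, and 5 (*Ndst3*, *Ndst4*, *Hs6st3*, *Hs3st2* and *Hs3st5*) had no read in any liver. *Gpc2*, *Gpc5* and *Hs6st2* had too few reads. None of the 59 passed the adjusted threshold in edgeR, none did in limma voom, and DESeq2 called 3 (*Notum*, *Gpld1* and *Hs6st1*), where it called 2.17% of the genes with an adjusted p. Fold changes were above 0 for 19 and below 0 for 40, with a median log2 fold change of -0.05. At an unadjusted p under 0.05 in edgeR there were 3 higher and 10 lower, beside 6.33% and 5.36% of all genes tested.

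The core proteins included *Col18a1*, the collagen XVIII of liver basement membranes and by read count the most abundant of them, at 1446 ± 118 CPM in WT and 1263 ± 93.7 CPM in LKO (log2 fold change -0.20, adjusted p = 0.297 in edgeR). Of the 12 core protein genes tested besides *Gpc6*, 4 had fold changes above 0 and 8 below, from -0.44 for *Gpc3* to 0.36 for *Sdc3*. The 7 linker genes, whose products build the sugars that join chain and protein, ran from -0.16 for *B3gat3* to 0.28 for *Xylt1*. *Xylt1* had at most 15 reads in a liver. None of the 7 had an unadjusted p under 0.05 in edgeR, where 6.33% of all genes tested were higher and 5.36% lower. The 5 polymerase genes ran from -0.22 for *Extl3* (adjusted p = 0.294 in edgeR) to 0.09 for *Ext2*, the partner subunit of *Ext1*.

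The modifying enzymes ran from -0.20 to 0.34, with 9 of 15 tested. The lowest was *Ndst1*, with *Hs6st1*, a 6-O-sulfotransferase, at the same size. *Hs6st1* had a median of 180 CPM in WT and 157 CPM in LKO (95% interval of the log2 fold change -0.34 to -0.07, adjusted p = 0.193 in edgeR). The highest was *Hs3st3a1*, a scarce 3-O-sulfotransferase with at most 20 reads in a liver. The 10 donor genes ran from -0.35 for *Slc26a1*, a sulfate transporter of hepatocytes (median 218 CPM in WT and 169 CPM in LKO, adjusted p = 0.230 in edgeR), to 0.27 for *Uxs1*, which makes UDP-xylose. The 8 lysosomal genes lay between -0.13 for *Sgsh* and 0.31 for *Idua*, the iduronidase lost in mucopolysaccharidosis type I.

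The group that edits chains or releases core proteins held the lowest adjusted p of the whole set. *Notum* encodes a secreted enzyme that inactivates Wnt proteins, and whether it also cuts glypicans from their anchor is disputed. Its lowest, median and highest values were 25.5, 26.6 and 35.2 CPM in WT and 18.5, 20.6 and 25.9 CPM in LKO. LKO liver 3, at 25.9 CPM, was the one LKO liver within the WT range. The log2 fold change was -0.45 (95% interval -0.66 to -0.23), with an adjusted p of 0.0770 in edgeR and of 0.00708 in DESeq2. *Gpld1*, a phospholipase that cleaves GPI anchors and circulates in plasma, had medians of 235 CPM in WT and 189 CPM in LKO and a log2 fold change of -0.28 (95% interval -0.44 to -0.12), with an adjusted p of 0.132 in edgeR and of 0.0234 in DESeq2. For *Hs6st1* the adjusted p in DESeq2 was 0.0388. The highest of this group was *Sulf2*, an endosulfatase, at 0.14. Of the 8 genes of this group, 3 had fold changes above 0 and 5 below. With all livers, *Notum* and *Gpld1* were short of the threshold in edgeR, and a link of either to *Gpc6* was not tested.

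**Figure D3:**
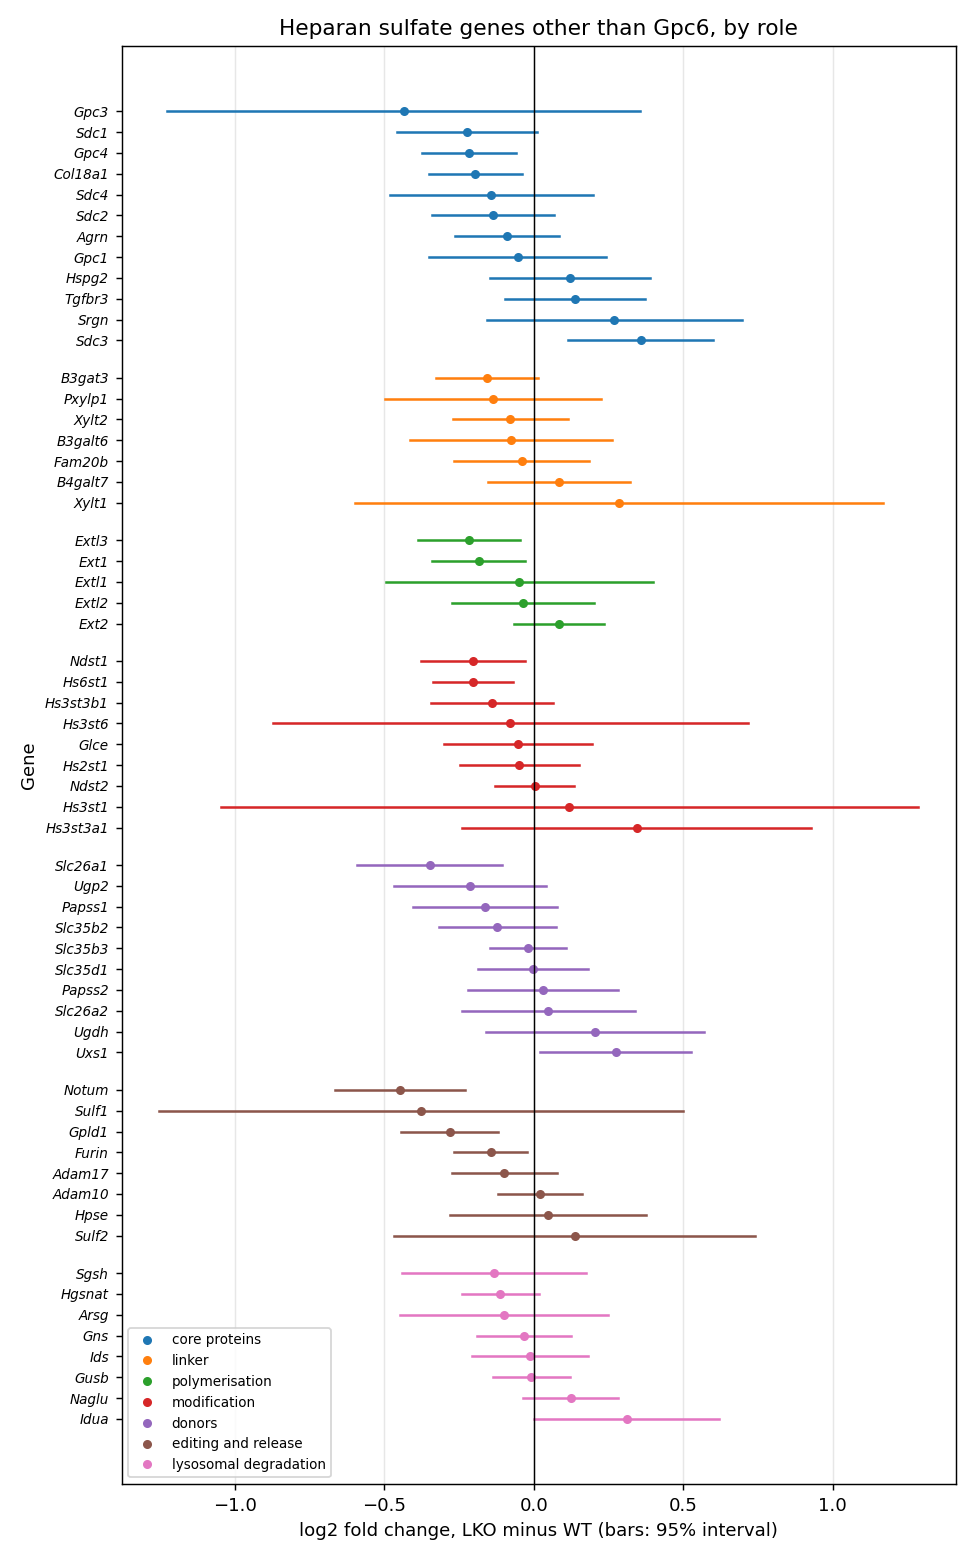
Log2 fold change, LKO minus WT, of the 59 tested heparan sulfate genes other than *Gpc6*, with 95% intervals from edgeR, grouped and coloured by role. The points lie between -0.45 (*Notum*) and 0.36 (*Sdc3*), 40 of them below 0, and the wide intervals belong to genes with few reads such as *Gpc3*, *Sulf1* and *Hs3st1*.

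Genes outside the heparan sulfate pathway that act on or beside these proteins were counted in the same fit. For the 6 genes that attach and trim GPI anchors, fold changes lay between -0.12 for *Pigt* and 0.14 for *Pgap1*, and none had an unadjusted p under 0.05. Of 14 genes of chondroitin and dermatan sulfate, the sister chains that share the linker, 12 were tested and none passed the adjusted threshold in edgeR. Their median was 0.12, with 9 above 0 and 3 below, and 1 of them (*Dse*, 0.34) had an unadjusted p under 0.05. Their fold changes ran from -0.29 for *Chsy3* to 0.92 for *Vcan*, which had at most 18 reads in a liver. Of all genes tested, edgeR called 0.428%, and 6.33% were higher and 5.36% lower at an unadjusted p under 0.05. The counts in both lists are no result particular to them beside these shares.

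Hedgehog genes were listed because of the known role of glypican 6, and *Ihh*, *Ptch1*, *Smo* and *Hhip* were among the 13 of 16 tested. None passed the adjusted threshold in edgeR, none did in DESeq2, and 1 was higher at an unadjusted p under 0.05 in edgeR. The shares over all genes were 0.428% called in edgeR and 2.17% in DESeq2. At that unadjusted p they were 6.33% higher and 5.36% lower, so these counts are no result particular to hedgehog genes. The widely used target *Gli1* had at most 9 reads in a liver and was not tested. *Ptch1*, another target, was at 39.7 ± 9.01 CPM in WT and 35.9 ± 4.67 CPM in LKO (log2 fold change -0.14, 95% interval -0.44 to 0.15). The lowest of the list was *Disp1* at -0.18.

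Of 13 genes of lipoprotein clearance, *Lpl* alone passed the threshold in edgeR with all livers, and DESeq2 also called *Lrp1*. The shares called over all genes were 0.428% in edgeR and 2.17% in DESeq2. *Lpl* encodes lipoprotein lipase, which binds heparan sulfate. *Lpl* had a lowest, median and highest value of 16.9, 28.6 and 36.3 CPM in WT and of 44.5, 59.1 and 111 CPM in LKO. The groups did not overlap, and LKO livers varied more (38.4% against 23.0%, coefficients of variation). The log2 fold change was 1.24 (95% interval 0.77 to 1.72, adjusted p = 0.0207 in edgeR). The adjusted p was 0.0578 without WT liver 4, 0.0698 without WT liver 5 and 0.0547 without LKO liver 3, with log2 fold changes of 1.24, 1.24 and 1.17. *Lrp1*, the remnant receptor that works beside syndecan 1, had the lowest fold change of the list, with a log2 fold change of -0.36 (1582 ± 175 CPM in WT, 1231 ± 107 CPM in LKO, adjusted p = 0.0809 in edgeR). Its adjusted p was 0.00348 in DESeq2 and 0.0473 in edgeR without WT liver 3. *Gpihbp1*, a GPI-anchored carrier of lipoprotein lipase, was at 9.50 ± 1.13 and 10.0 ± 1.82 CPM.

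Heparan sulfate serves as a co-receptor for many FGFs and also binds HGF. None of the 15 FGF and HGF genes passed the threshold in edgeR. At an unadjusted p under 0.05 in edgeR, 1 was higher and 3 were lower, beside 6.33% and 5.36% of all genes tested. DESeq2 called *Fgfr1* and *Fgfr4*, where it called 2.17% of the genes with an adjusted p. *Fgfr1*, an FGF receptor, had the lowest fold change, from a median of 12.0 CPM in WT to 6.80 CPM in LKO (log2 fold change -0.97, 95% interval -1.43 to -0.52, adjusted p = 0.0676 in edgeR). Its adjusted p was 0.00206 in DESeq2. In edgeR it was 0.0322 with no filter on low counts, 0.00627 without WT liver 3 and 0.152 without WT liver 5. *Fgf21*, a hormone of hepatocytes, had the highest fold change, at 0.65 (adjusted p = 0.490 in edgeR).

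The tissue was bulk liver, in which fewer cells of a type and less RNA per cell cannot be told apart. Markers of stellate cells and Kupffer cells had fold changes on the same side of 0 as *Gpc6*. So had 7 of 8 endothelial and 4 of 6 cholangiocyte markers, against 1 of 6 hepatocyte and 1 of 4 mesothelial markers. All 8 stellate markers had fold changes above 0, with a median log2 fold change of 0.23, from 0.04 for *Pdgfrb* to 0.47 for *Lrat*, and 2 of the 8 had an unadjusted p under 0.05. Their summed level was 222 to 334 CPM in WT and 266 to 382 CPM in LKO. All 7 Kupffer cell markers had fold changes above 0, with a median of 0.42, from 0.30 for *Adgre1* to 0.50 for *Timd4*, and 6 of the 7 had an unadjusted p under 0.05. Their summed level was 99.7 to 129 CPM in WT and 125 to 215 CPM in LKO. None of these markers passed the adjusted threshold in edgeR, and none was at 0, while DESeq2 called *Clec4f*, *Vsig4* and *Cd5l* of the Kupffer cell list. Over all genes tested, 6.33% were higher in LKO at an unadjusted p under 0.05 in edgeR. DESeq2 called 2.17% of the genes to which it gave an adjusted p. The differences in these markers were all smaller than that in *Gpc6*, and their part in it was not tested.

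The 8 endothelial markers had a median log2 fold change of 0.07 and summed to 174 to 232 CPM in WT and 186 to 231 CPM in LKO, with *Lyve1* the highest at 0.77 (adjusted p = 0.103 in edgeR) and *Kdr* the lowest at 0.00. The 6 cholangiocyte markers had a median of 0.19, from -0.62 for *Sox9* to 0.51 for *Epcam*, and summed to 37.0 to 63.9 CPM in WT and 34.2 to 129 CPM in LKO. The 4 mesothelial markers had a median of -0.59, from -0.81 for *Lrrn4* to 0.36 for *Wt1*, and summed to 1.61 to 13.3 CPM in WT and 2.27 to 7.37 CPM in LKO. The 6 hepatocyte markers had a median of -0.11, from -0.22 for *Serpina1a* to 0.09 for *Ttr*. None of the markers on these 4 lists passed the adjusted threshold in edgeR. *Cftr*, a cholangiocyte marker with at most 9 reads in a liver, had no read in WT liver 3, and every other marker had reads in every liver. At an unadjusted p under 0.05 there were 1 endothelial, 1 cholangiocyte, 0 mesothelial and 2 hepatocyte markers, and DESeq2 called *Lyve1*. The shares over all genes tested were 6.33% higher and 5.36% lower at that unadjusted p in edgeR.

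Genes near *Gpc6* were compared to see whether the difference extended along the chromosome. Within 1 Mb on either side, 29 genes were annotated and 22 had 3 or fewer reads in every liver. The 7 that were tested all lie downstream. None passed the threshold in edgeR, and *Dnajc3* alone had an unadjusted p under 0.05. The nearest, *Dct*, 36.2 kb away, had a log2 fold change of -0.15 (SE 0.30). *Tgds* (0.03, SE 0.09), *Gpr180* (-0.08, SE 0.08), *Abcc4* (0.11, SE 0.17) and *Dzip1* (0.46, SE 0.28) had adjusted p-values between 0.593 and 0.943 in edgeR. *Gm26773*, at 0.35 (SE 0.20), overlaps *Tgds* on the opposite strand, and reads of the overlap cannot be told apart without strand. *Dnajc3*, a chaperone gene of the endoplasmic reticulum 961 kb away, was the one neighbour whose groups did not overlap, at 323 to 427 CPM in WT and 251 to 319 CPM in LKO. It was lower in LKO (log2 fold change -0.33, 95% interval -0.49 to -0.16, adjusted p = 0.0828 in edgeR and 0.00495 in DESeq2). Within 5 Mb, 0 of 29 tested genes passed the threshold in edgeR, with 1 higher and 1 lower at an unadjusted p under 0.05. Of all genes tested, edgeR called 0.428%, and 6.33% were higher and 5.36% lower at that unadjusted p. The livers of the groups did not overlap for 1.30% of them. DESeq2 called 2.17% of the genes to which it gave an adjusted p. At these shares, few or no calls among so few genes are no result about the neighbours.

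**Figure D4:**
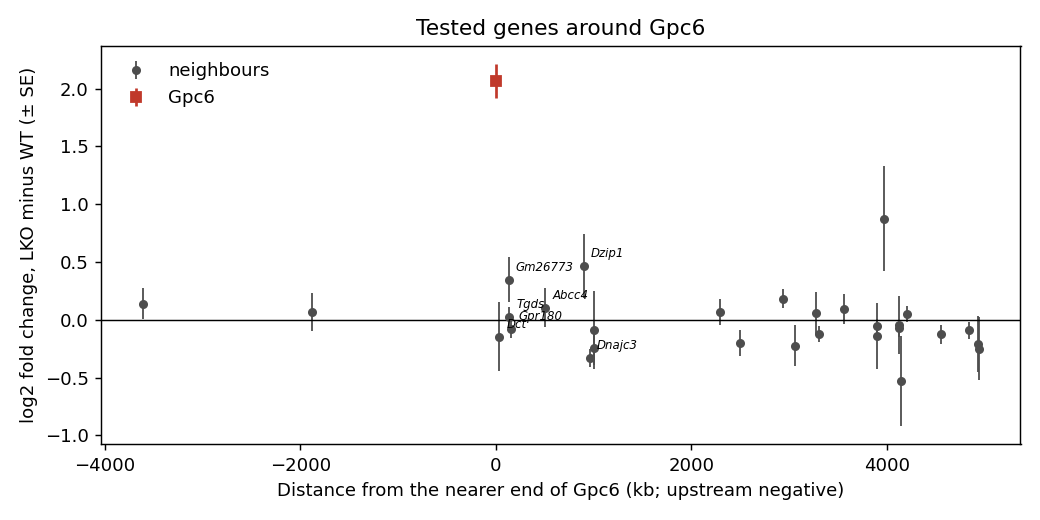
Log2 fold change, LKO minus WT, with standard errors, of the tested genes within 5 Mb of *Gpc6* against their distance from its nearer end in kb (upstream negative), with *Gpc6* as a square at 0 kb. *Gpc6* stands at 2.06, and the 7 named genes within 1 Mb lie between -0.33 and 0.46.

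The 5 genes whose profile over the 12 livers was nearest to that of *Gpc6*, by the root-mean-square difference of log2 CPM after centring each gene, were *Tmem86a* (0.40), *Mr1* (0.45), *Adam11* (0.47), *Pltp* (0.48) and *Acpp* (0.48), out of 17501 genes compared. This measure contains the genotype difference itself, by which *Gpc6* was chosen. All 5 were higher in LKO, with log2 fold changes from 1.17 for *Adam11* to 1.57 for *Tmem86a*, all below that of *Gpc6*. After the mean of each genotype was removed, 0 of these 5 genes remained among the 5 nearest. Their distances were then 0.34 (*Tmem86a*), 0.17 (*Mr1*), 0.19 (*Adam11*), 0.45 (*Pltp*) and 0.39 (*Acpp*). The low read numbers of *Gpc6* add counting error to such ranks. The loss of these places among so many genes thus does not show what the likeness rested on.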

How the data were processed

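Poly(A) RNA of 12 livers (6 WT, 6 LKO, grouped by the genotype label) had been made into libraries with a KAPA mRNA HyperPrep kit. According to the submitters' processing notes and the study's methods, the authors ran Trimmomatic 0.36 on the reads, mapped these to GRCm38.p6 by HISAT2 2.1.0 and used HTSeq 0.6.1 for gene counts. The deposited table holds raw read counts by Ensembl gene, not normalized. Strand setting and overlap mode are not given in the sources used here. No molecular identifiers were used, so copies of the same molecule cannot be told apart. Read numbers are therefore only a rough guide to counting error.

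Symbols, coordinates and lengths came from GENCODE M21 (54165 of 54232 identifiers matched). The filter of the study was applied, over 2 reads in 6 or more livers (17509 genes). Counts were TMM-scaled and tested, two-sided, by quasi-likelihood in edgeR 4.0.16 (R 4.3.3). The model held the genotype alone, and p-values were adjusted by Benjamini-Hochberg across all 17509 genes. Intervals are 95% intervals of the log2 fold change. Likeness used log2 CPM with a prior count of 0.5. The script was tested on simulated data. Alternatives were other scalings and filters, limma voom (limma 3.58.1, the study's test), DESeq2 1.42.0, a replicate block and leaving out each liver.

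The members, the lists and the alternatives were chosen with earlier results of these data known, and *Gpc6* was chosen from this same contrast. Named genes are the members, all glypicans and syndecans, in each list the called genes and the highest and lowest fold change, tested genes within 1 Mb of *Gpc6*, the 5 nearest profiles and *Marchf6*. Other genes named in the text, such as *Col18a1*, *Hs6st1*, *Gpld1*, *Dse*, *Gpihbp1*, *Ptch1* and *Gli1*, were chosen after their values were seen. All WT library numbers precede all LKO numbers, so library order and genotype cannot be told apart. Each library is a separate mouse. The values of 1 listed gene are not reported here.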

Additional observations from a re-analysis of the deposited data

Results flagged for a closer look

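Among the 50 groups of 6 livers searched, 4 held a liver whose gap to the nearest other, divided by the range of the group, was above Dixon's 95% critical value for 6 samples. Chance gives about 2.5 among 50. *Sdc1* in WT liver 2 stood at 235 CPM against 157 CPM for the next liver, with a ratio of 0.832. *Hspg2* in LKO liver 1 stood at 35.2 CPM against 26.4 CPM, with a ratio of 0.670. *Gpld1* in LKO liver 4 stood at 235 CPM against 195 CPM, with a ratio of 0.695, and without that liver its log2 fold change was -0.34 with an adjusted p of 0.0380 in edgeR. *Dct* in LKO liver 4 stood at 9.34 CPM against 6.65 CPM, with a ratio of 0.682.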

How the results depend on the processing

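The log2 fold change of *Gpc6* kept its direction under every alternative run and ranged from 1.99 to 2.12 when single livers were left out. *Gpc6* was chosen from these same livers, and its groups did not overlap. Leaving out a liver could therefore not reverse it, and the kept direction is no check of the difference. No alternative called any of the other 9 members. The number of genes called was 114 with no filter on low counts, 351 in DESeq2 and 38 to 132 with single livers left out (132 without WT liver 3, 38 without WT liver 5). The heparan sulfate genes called numbered 3 in DESeq2 and 0 to 1 with single livers left out (*Notum* without LKO liver 3, *Gpld1* without LKO liver 4). The comparison lists had 2 calls with no filter, 8 in DESeq2 and 0 to 3 with single livers left out. DESeq2 called 1 of the 7 neighbours of *Gpc6* tested within 1 Mb. Over all genes, DESeq2 called 2.17% of those to which it gave an adjusted p, and edgeR 0.428% in the main fit. With no filter, edgeR called 114 of 29280 genes. The cause of the shifts in these numbers of calls was not tested. With the replicate number as a block, 97 genes were called, and the blocked fit changed no call among the members. Livers with the same number did not deviate together throughout (correlations from -0.065 to 0.135), so the numbers were not taken as pairs. *Dct* reversed to 0.015 in limma voom. With single livers left out, *Dct* ranged from -0.307 to 0.064, *Tgds* from -0.022 to 0.084 and *Gpc1* from -0.127 to 0.024. With the longest transcript as the length, *Gpc6* in LKO livers was at 2.32 TPM, and 0 of the 5 nearest profiles were kept without the genotype means. *Gpc2*, *Gpc5* and *Gli1* were too shallow for a test.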
